A study of Mus musculus with 2 samples.

Results

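Klrg1, Lag3, Havcr2, Pdcd1, Cd160 and Cd200r1 encode receptors that can restrain natural killer (NK) cells, T cells or both. Their transcripts were followed through 1 single-cell library of splenic NK cells. The 6 genes were taken by symbol from the 32285 genes of the count table. Spleens came from wild-type mice, and no stimulation, age or strain is named in the labels. Cells were enriched by holding back other lineages on magnetic beads, read with 10x Genomics 3′ v3.1 chemistry, and carried 3 lipid tags that mark pooled cells. Each barcode is 1 droplet, and each unique molecular identifier (UMI) stands for 1 captured transcript. Of 16384 barcodes, 11696 held 500 to 6000 genes, at most 10% mitochondrial UMIs and exactly 1 tag: 3590 of tag 1, 4213 of tag 2 and 3893 of tag 3. Their totals were 18485480, 23091461 and 22465648 UMIs, with medians of 4026.5, 4433 and 4125 per cell, and 0 barcodes were listed more than once. No label ties a tag to a mouse, so the tags are replicates of 1 library. The p-values measure only how class differences vary between tags, with information on spread shared between genes, and this variation may be technical. A second sample of the same description was not analysed here.

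KLRG1 is a lectin-like receptor that binds cadherins and marks late stages of NK maturation, during which mouse NK cells lose CD27 and gain CD11b, the product of Itgam. CD160 is a glycolipid-anchored receptor for the TNF receptor family member HVEM (Tnfrsf14) and for MHC class I. LAG3 is a relative of CD4 that binds MHC class II, TIM-3 (Havcr2) binds galectin-9, PD-1 (Pdcd1) binds the ligands encoded by Cd274 and Pdcd1lg2, and CD200R1 binds CD200 and signals through Dok adaptors. Type 1 innate lymphoid cells (ILC1) are tissue cells close to NK cells that depend less on Eomes and often carry the IL-7 receptor.

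By the mm10 annotation (GENCODE M21), Klrg1 lies at chr6:122270596-122282882 on the minus strand and Lag3 at chr6:124904361-124911705 on the minus strand. Pdcd1 lies at chr1:94038305-94052553 (minus), Havcr2 at chr11:46454935-46481255 (plus) and Cd200r1 at chr16:44765736-44794978 (plus). Cd160, at chr3:96798763-96829351 (minus), overlaps Pdzk1 on the opposite strand, and none of the other 5 genes overlaps an annotated gene. RefSeq promoter sequences (GRCm38.p6, 250 bases before to 50 after a start) matched 3 of the 6 members by symbol: Cd160 with 2 starts, Havcr2 and Pdcd1. Of these 3 genes, Cd160 and Havcr2 are shown, because their absolute levels ranged more widely than those of Pdcd1 between the cell types below. Cd160 varied among lymphocytes, and Havcr2 was high in myeloid cells. A 3′ count does not tell which Cd160 start was used. Capitals mark matches, on either strand, to a RUNX motif (TGTGGT) or a TCF motif (CTTTGA). The intervals are chr3:96829302-96829601 (minus) for the first Cd160 start, chr3:96814472-96814771 (minus) for the second, and chr11:46454681-46454980 (plus) for Havcr2.
Cd160, first start: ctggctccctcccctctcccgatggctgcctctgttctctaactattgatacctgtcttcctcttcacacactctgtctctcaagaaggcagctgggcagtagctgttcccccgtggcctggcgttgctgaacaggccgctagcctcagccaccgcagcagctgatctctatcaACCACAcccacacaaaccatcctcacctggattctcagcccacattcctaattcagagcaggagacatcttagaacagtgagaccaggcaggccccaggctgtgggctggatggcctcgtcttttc
Cd160, second start: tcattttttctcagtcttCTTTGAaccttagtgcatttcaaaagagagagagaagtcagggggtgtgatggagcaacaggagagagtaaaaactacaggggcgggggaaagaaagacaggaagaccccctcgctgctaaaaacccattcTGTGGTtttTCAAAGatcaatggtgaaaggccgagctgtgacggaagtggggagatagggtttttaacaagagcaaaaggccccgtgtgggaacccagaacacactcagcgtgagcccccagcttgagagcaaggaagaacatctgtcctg
Havcr2: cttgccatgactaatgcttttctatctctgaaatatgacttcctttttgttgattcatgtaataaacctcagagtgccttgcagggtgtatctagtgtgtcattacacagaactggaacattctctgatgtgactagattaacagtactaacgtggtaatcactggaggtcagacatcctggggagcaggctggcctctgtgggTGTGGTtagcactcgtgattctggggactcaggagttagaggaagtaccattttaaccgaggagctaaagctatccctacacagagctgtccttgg
The first Cd160 start and Havcr2 each held 1 RUNX match and no TCF match. The second Cd160 start held 1 RUNX match and 2 TCF matches, which do not overlap. Of 32851 RefSeq promoters of this length, 16.8% held the RUNX letters and 16% the TCF letters. A T-box motif (AGGTGT, in 13.7% of promoters) and an NFAT motif (GGAAAA, in 23.4%) matched none of the 3 sequences. A match is a description of letters and not of binding.

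Cells were grouped by clusters built without the 6 members, and clusters were named from marker genes. NK-like cells were 7822 of the 11696 (66.9%). Klrb1c, which encodes NK1.1, had a UMI in 97.3% of them and Ncr1, which encodes NKp46, in 94.5%. The 641 ILC1-like cells had Il7r in 83.2% and Rora in 63.8%, while Eomes was seen in 24.5% of them against 69.6% of NK-like cells. The other listed ILC1 markers were rarer, from 22.3% (Cxcr6) and 23.7% (Itga1) to 48.8% (Tmem176b) of ILC1-like cells. Their cluster scored higher on the NK marker list (0.735) than on the ILC1 list (0.668), and ILC1 are known to share Ncr1 and Klrb1c with NK cells. The 155 T cell-like cells had Cd3e, Cd3d, Cd3g, Trac and Cd8b1 among their leading genes. Il7r was also seen in 80.65% of them, so it does not single out ILC1-like cells. Only 25 of them came from tag 2, against 41 from tag 1 and 89 from tag 3. B cell-like cells (712) served as a measure of free RNA in droplets. Tags do not show doublets of equally tagged cells, of which about 1795 (15.3% of the cells) were expected.

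NK-like cells were split by UMIs of Cd27 and Itgam after each was thinned to 2500 UMIs, which left out 688 shallower cells. This gave 879 Cd27-only cells, 433 with both, 3315 with neither and 2507 Itgam-only cells, with median totals of 5148, 4415, 4274 and 3812 UMIs. In 714 of the 879 Cd27-only cells and 1675 of the 2507 Itgam-only cells the class rests on 1 UMI. The class with neither depends on depth and is not read as a stage. It held 1037, 1301 and 977 cells of tags 1, 2 and 3, and 763, 825 and 748 with classes from unthinned counts. Cells with both then numbered 377, 481 and 320, against 144, 160 and 129. The unit of all levels is CPM: UMIs of 1 gene per 1000000 gene UMIs in the cells concerned, here from unthinned counts.

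Klrg1 and Cd160 were the 2 members detected widely in NK-like cells. They ran in opposite directions from the Cd27-only to the Itgam-only class. Klrg1 stood at 35.9, 49.1 and 28.9 CPM in Cd27-only cells of tags 1, 2 and 3. In cells with both markers it stood at 73.9, 92 and 84.1 CPM, in those with neither at 96.8, 88.3 and 79.5, and in Itgam-only cells at 164.5, 154.9 and 129.5. Every Cd27-only value lay below every value with both markers, and these lay below every Itgam-only value, while the classes with both and with neither overlapped. Against the Itgam-only class, the Cd27-only class was 3.71-fold lower in Klrg1 (log2 fold -1.89, SE 0.102, edgeR quasi-likelihood test with tag as a block, adjusted p = 2.58e-21). Cells with both markers were lower than Itgam-only cells by 0.83 on the log2 scale (log2 fold -0.83, adjusted p = 6.12e-07 in edgeR) and higher than Cd27-only cells, whose log2 fold against them was -1.06 (adjusted p = 2.24e-06).

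Cd160 was lowest in the Itgam-only class. There it stood at 56.3, 56.0 and 56.7 CPM, against 108.9, 122.4 and 110.8 in Cd27-only cells. In cells with both markers it stood at 104.8, 74.8 and 64.7 CPM, and in those with neither at 96.6, 113.7 and 112.1. All 9 sums of the other 3 classes lay above the Itgam-only sums. Cd160 in the Cd27-only class exceeded the Itgam-only level 2.11-fold (log2 fold 1.08, SE 0.095, edgeR adjusted p = 1.87e-13), and higher in 3 of 3 tags. Against the class with both markers, Itgam-only cells were also lower (log2 fold of both over Itgam-only 0.56, SE 0.137, edgeR adjusted p = 0.00949), but the call was lost without tag 1 (0.34, adjusted p = 0.454), without the tag block (0.56, adjusted p = 0.0706), with classes set at 1500 UMIs (0.32, adjusted p = 0.67) and without cells holding a CD3 UMI (0.51, adjusted p = 0.055). Cd27-only cells exceeded those with both markers by 0.52 (SE 0.13, edgeR adjusted p = 0.0101), a call lost in 6 of 14 alternatives, among them those without tag 2 (0.39, adjusted p = 0.298) and without tag 3 (0.43, adjusted p = 0.19).

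**Figure D1:**
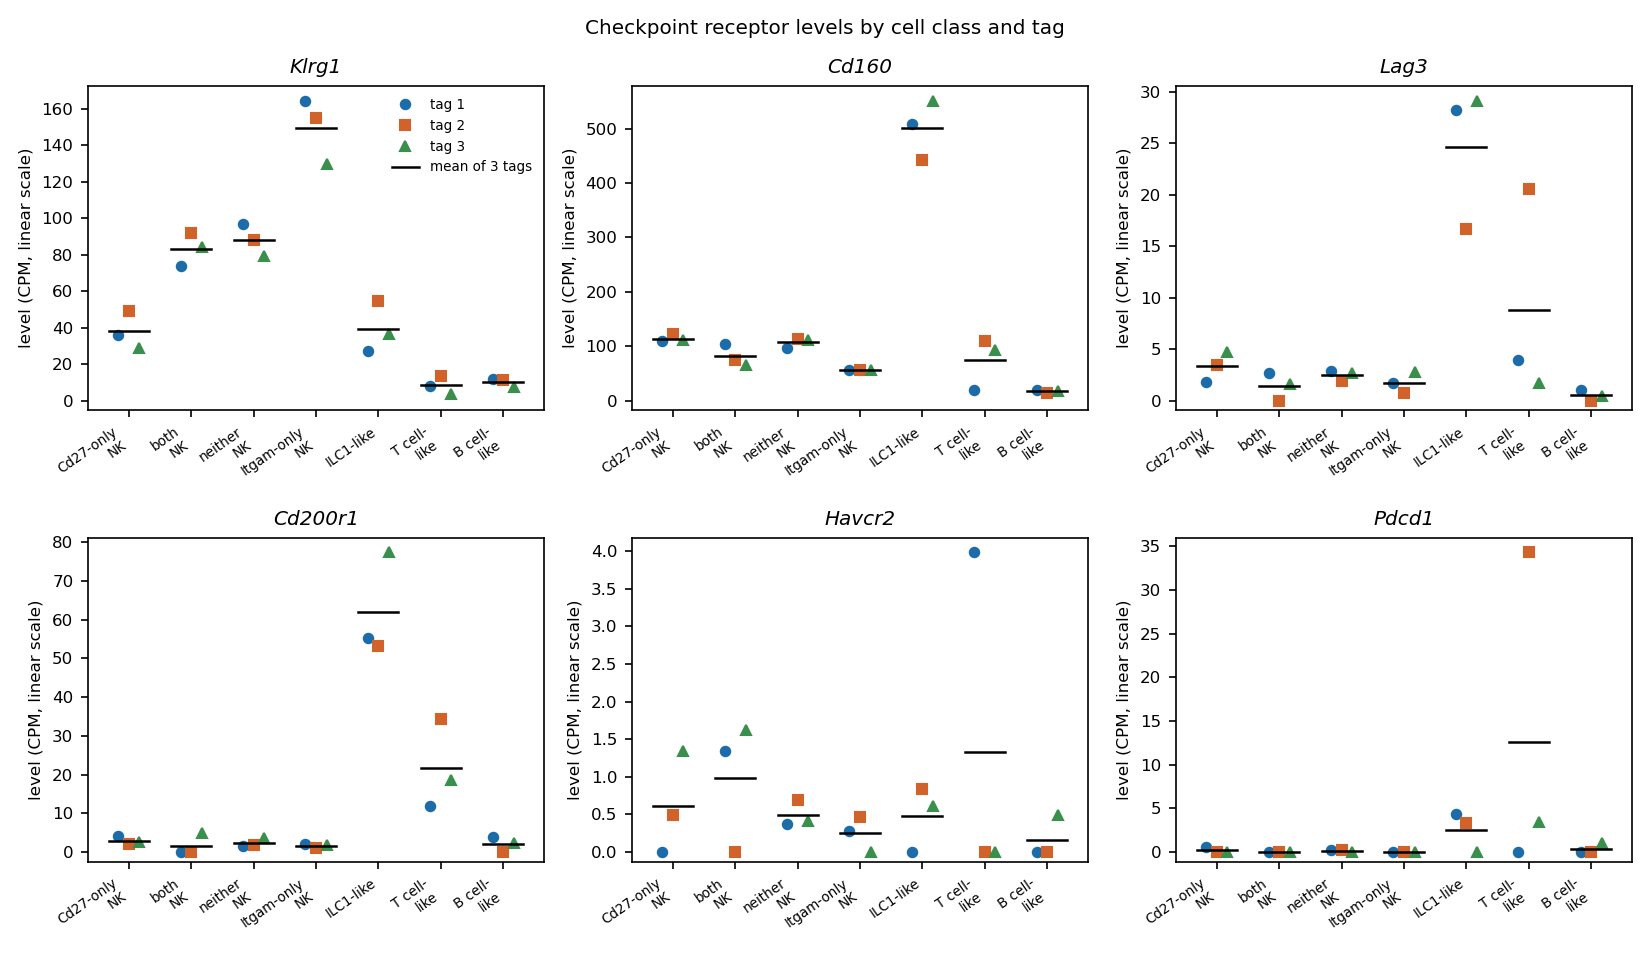
CPM of each member (linear axes of different range) in the NK-like maturation classes and in ILC1-like, T cell-like and B cell-like cells; each symbol is 1 of 3 tags and the line their mean. Klrg1 is highest in Itgam-only NK cells, and the means of Cd160, Lag3 and Cd200r1 are highest in ILC1-like cells, while Havcr2 stays below 5 CPM in all 7 classes.

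In each of these 3 comparisons 2 of the 6 members passed the expression filter, and 1 of them (Cd160) was called higher and 1 (Klrg1) lower. Over all 10470 genes tested, 13.8% were called for the Cd27-only over the Itgam-only class, 8.17% as higher and 5.59% as lower. For the both-marker over the Itgam-only class 2.72% were called, 1.83% higher and 0.888% lower. For the Cd27-only over the both-marker class 3.16% were called, 2.38% higher and 0.783% lower. The comparisons share classes, so they are not independent. T cell markers summed to 565 to 674 CPM per tag in the Cd27-only class and 470 to 517 CPM in the Itgam-only class, with Cd4 at 0 in both classes. The list includes Trbc1 and Lef1, seen in 67.35% and 41.9% of NK-like cells, so these sums are not a measure of T cells. Without cells holding a CD3 UMI, the Cd27-only against Itgam-only log2 folds were -1.80 for Klrg1 and 0.97 for Cd160. Without cells holding Mki67 or Top2a, genes of dividing cells, they were -1.74 and 1.07. The Cd160 difference between Cd27-only and both-marker cells did not pass after either removal (0.46, edgeR adjusted p = 0.106, without CD3 and 0.41, adjusted p = 0.144, without Mki67 or Top2a).

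The number of gate UMIs in a cell went with the same order for Klrg1 over both gates and for Cd160 over Itgam. Cd160 showed no steady rise over Cd27 UMIs. Among NK-like cells without Cd27, Klrg1 stood at 88.2 ± 8.62 CPM (SD, n = 3 tags) with no Itgam UMI, 137.9 ± 25.2 with 1, 156.1 ± 19.8 with 2 and 212.9 ± 20.8 with 3 or more. The same steps gave Cd160 at 107.5 ± 9.47, 60.3 ± 3.76, 47.9 ± 8.37 and 47.6 ± 11.3 CPM, so its fall was largest at the first UMI, and the steps with 2 and with 3 or more overlapped. Among cells without Itgam, Klrg1 stood at 41.4 ± 13.3 CPM with 1 Cd27 UMI and 23.9 ± 3.52 with 2. Cd160 stood at 107.4 ± 9.96 CPM with 1 Cd27 UMI, within the spread of cells with none, and at 149.3 ± 17.0 with 2 (138 cells). The 27 cells with 3 or more Cd27 UMIs held 3 Klrg1 and 15 Cd160 UMIs, at 18.2 ± 31.5 and 90.2 ± 66.3 CPM. Where each gate was set at 2 UMIs or more, the log2 folds of Cd27-only over Itgam-only cells were -2.82 for Klrg1 and 1.66 for Cd160. Median totals ran from 3626 UMIs in cells with 3 or more Itgam UMIs to 5780 in cells with 3 or more Cd27 UMIs, and the part of depth in these steps was not tested.

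**Figure D2:**
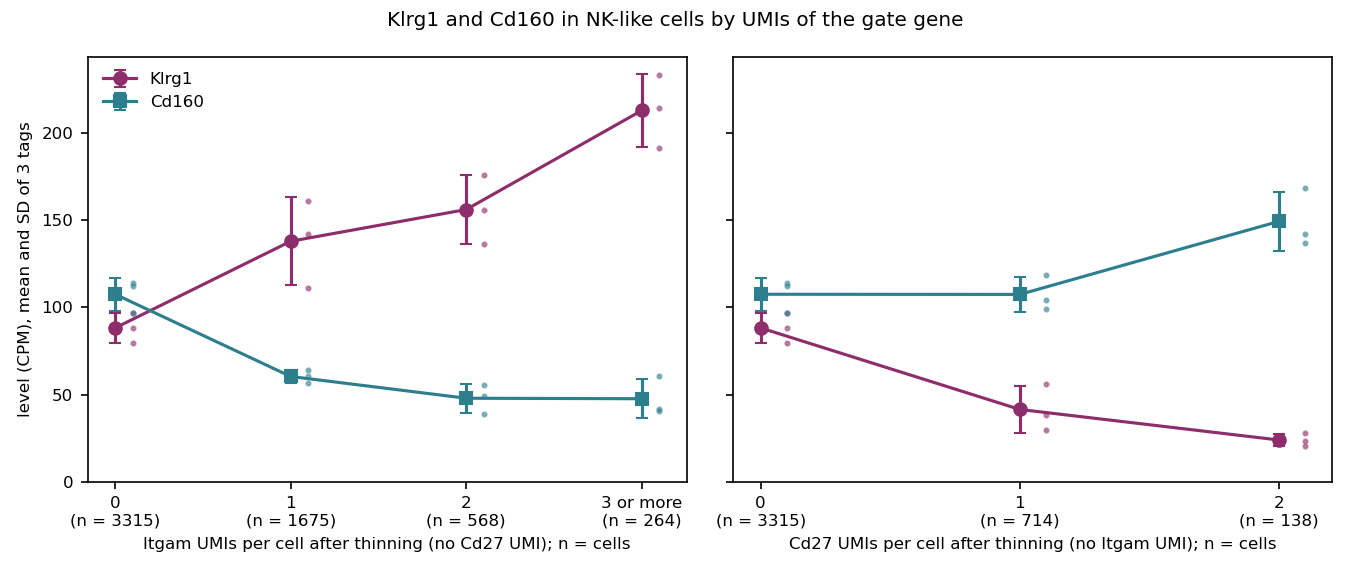
CPM of Klrg1 and Cd160 (linear axis) in NK-like cells by UMIs of Itgam in cells without Cd27 (left) and of Cd27 in cells without Itgam (right); large symbols and bars are mean and SD of 3 tags, small dots the tags, and n counts cells (27 cells with 3 or more Cd27 UMIs are left out). Klrg1 climbs from 88.2 to 212.9 CPM over the Itgam steps while Cd160 drops from 107.5 to 47.6 CPM.

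Shares of cells showed the same order as levels. At 2500 UMIs a Klrg1 UMI was seen in 8.70% ± 4.03 of Cd27-only cells (SD, n = 3 tags), 18.6% ± 3.96 with both, 18.6% ± 1.34 with neither and 27.1% ± 1.90 of Itgam-only cells. Cd160 was seen in 18.3% ± 1.51, 14.8% ± 1.77, 17.0% ± 1.81 and 10.4% ± 0.739. B cell-like cells, at a like depth (median 3905 against 3974 UMIs in NK-like cells), held Klrg1 in 2.32% ± 0.893 and Cd160 in 2.63% ± 1.39, well under every NK-like class. Without thinning, 28.3% of NK-like cells held a Klrg1 UMI (exact 95% interval 27.4 to 29.4%) and 24.8% a Cd160 UMI (23.9 to 25.8%). Such intervals cover counting error only.

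The 7 NK-like clusters, built without either gene, showed the same contrast at the ends of their range. Clusters 0 and 1, led by the granzyme gene Gzmb, the mast cell protease gene Cma1 and Ly6c2, held Klrg1 at 219.0 ± 13.5 and 189.5 ± 21.3 CPM and Cd160 at 34.6 ± 6.74 and 46.5 ± 7.55 CPM (SD, n = 3 tags). Clusters 2 and 3, both with the chemokine receptor gene Ccr2 among their leading genes, held Klrg1 at 41.3 ± 8.77 and 32.6 ± 4.87 CPM and Cd160 at 119.2 ± 3.18 and 127.1 ± 6.46 CPM. Cluster 12, the dividing cells with Mki67 and Top2a, had Klrg1 at 51.1 ± 22.8 and Cd160 at 168.6 ± 15.1 CPM. Cluster 9, with Klrc1, the NKG2A gene, among its leading genes, had 61.1 ± 4.21 and 103.9 ± 25.6 CPM. In cluster 4 Klrg1 stood between these groups at 95.3 ± 14.8 CPM, with Cd160 at 52.2 ± 13.1, close to the Cd160 level of clusters 0 and 1. Because clusters come from other genes of the same cells, these levels are a description.

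**Figure D3:**
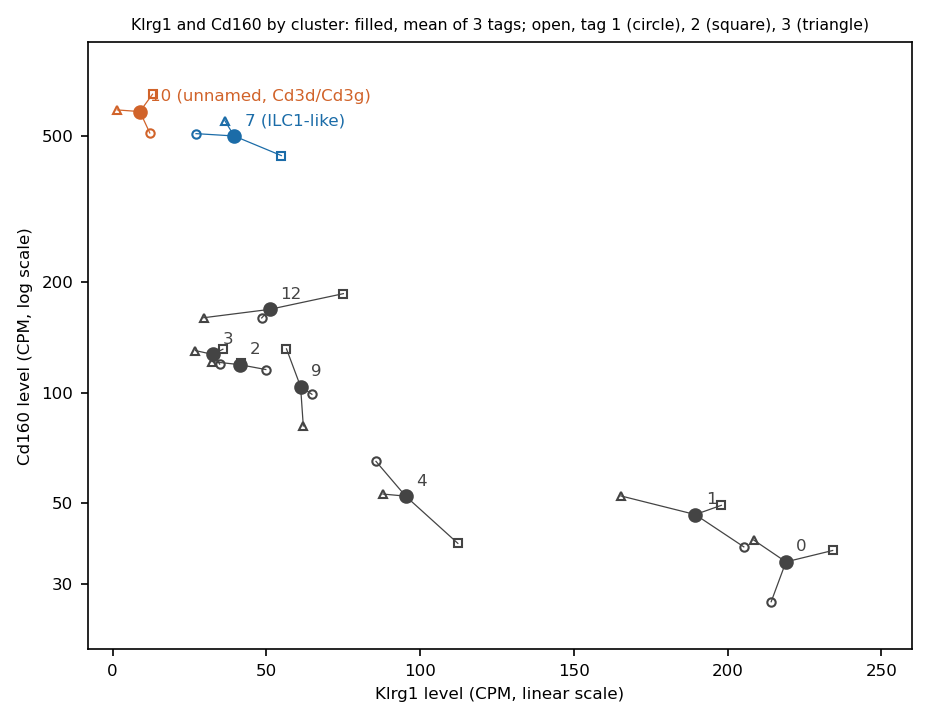
Klrg1 (linear axis) against Cd160 (log axis) in CPM for the 7 NK-like clusters (grey), the ILC1-like cluster 7 (blue) and the unnamed cluster 10 (orange); filled symbols are means of 3 tags and open ones the tags. Clusters 0 and 1 combine the highest Klrg1 with low Cd160, and clusters 7 and 10 have Cd160 above every NK-like cluster in every tag.

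Within single NK-like cells, Cd160 was seen less often beside Klrg1 than without it. At 2500 UMIs, 127 of 1458 cells with a Klrg1 UMI also held Cd160 (8.71%, exact 95% interval 7.31 to 10.3%), against 921 of 5676 without Klrg1 (16.2%, 15.3 to 17.2%). By tag the shares were 9.49% against 15.6%, 8.01% against 16.4% and 8.77% against 16.6%, lower with Klrg1 in 3 of 3. Inside the Itgam-only class the shares were 7.34% with and 11.5% without Klrg1, also lower in 3 of 3 tags, though in tag 1 they were 11.02% and 11.25%. Among cells with neither marker they were 9.40% and 18.7%, again lower in 3 of 3 tags. Among Cd27-only cells the shares of 12.7% (10 of 79 cells, 6.24 to 22.1%) and 19.0% (16.3 to 21.9%) were lower with Klrg1 in 3 of 3 tags, but the intervals overlapped. With both markers the shares of 11.1% and 15.6% also had intervals that overlapped, and 2 of 3 tags were lower. Of all classed NK-like cells, 66.0% showed no member at this depth, 31.9% showed 1, 2.06% showed 2 and 0.0420% showed 3 or more.

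**Figure D4:**
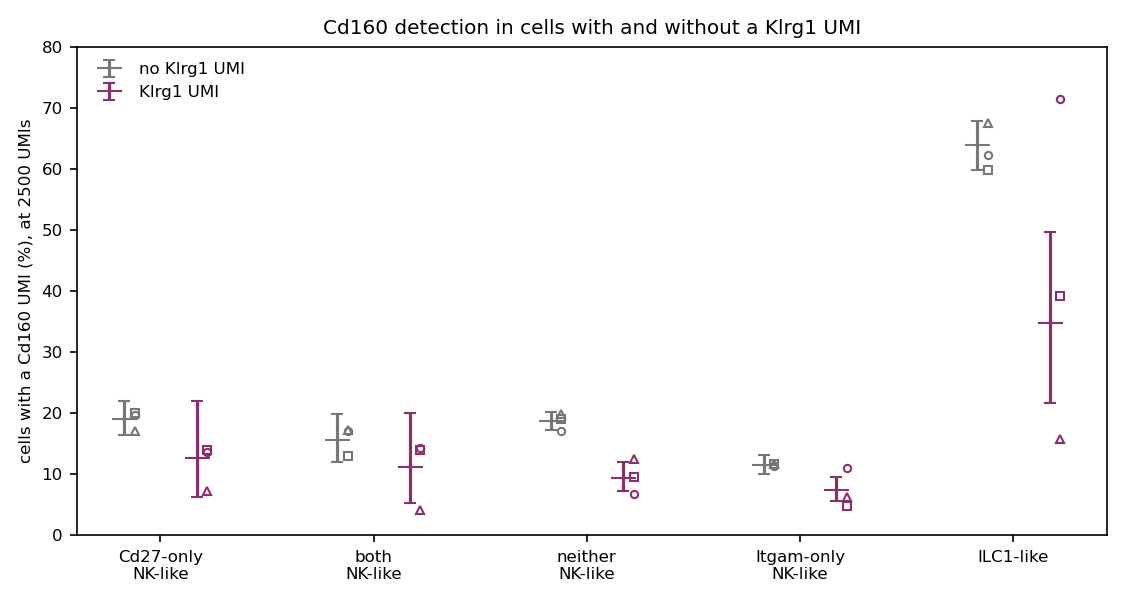
Share of cells with a Cd160 UMI (%, at 2500 UMIs) among cells without (grey) and with (purple) a Klrg1 UMI, by class; bars are exact 95% binomial intervals of pooled cells and open symbols the 3 tags. The share is 9.40% against 18.7% in cells with neither gate marker, and tag 1 goes against the other tags in ILC1-like cells.

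ILC1-like cells carried the most Cd160, Lag3 and Cd200r1 among the named lymphocyte classes, and less Klrg1 than NK-like cells. Cd160 stood at 508, 443 and 551 CPM in ILC1-like cells of tags 1, 2 and 3, against 84.8, 94.7 and 89.4 in NK-like cells, and 75.4% of ILC1-like cells held a UMI (71.8 to 78.6%). The groups did not overlap, and the difference was 5.61-fold (log2 fold 2.49, SE 0.0884, edgeR adjusted p = 9.93e-23). Cd200r1 stood at 55.4, 53.2 and 77.4 CPM against 1.88, 1.48 and 2.92, a log2 fold of 4.91 (SE 0.221, edgeR adjusted p = 1.35e-19). Lag3 stood at 28.2, 16.6 and 29.1 CPM against 2.31, 1.61 and 2.83, a log2 fold of 3.45 (SE 0.31, edgeR adjusted p = 2.51e-11). Klrg1, at 27.1, 54.9 and 36.5 CPM against 108.1, 103.2 and 91.1, was 2.46-fold lower (log2 fold -1.30, SE 0.13, edgeR adjusted p = 3.69e-10). Its ILC1-like tags overlapped those of Cd27-only NK cells, a pair that was not tested.

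Of the 6 members 3 were called higher and 1 lower in ILC1-like than in NK-like cells, where 23.7% of 8971 genes tested were called, 12.8% as higher and 10.9% as lower. The other 2, Havcr2 and Pdcd1, did not pass the filter. Lag3 and Cd200r1 passed it through classes where they are high, and neither passed in the maturation classes, made of NK-like cells alone. A call of higher was therefore likely in advance for both, and the count beside the all-gene share is not a result about the members. Since the classes come from clusters of the same cells, these p-values are not independent of how the cells were grouped. When classes were set instead by fixed markers, the log2 folds were 2.41 for Cd160, 4.26 for Cd200r1, 3.93 for Lag3 and -1.84 for Klrg1. ILC1-like cells without an Eomes UMI (484) held Cd160 at 560.7 ± 120.7 CPM and Cd200r1 at 65.4 ± 19.5, and those with one (157) at 393.4 ± 93.7 and 51.6 ± 14.6 (SD, n = 3 tags), ranges that overlap. Of the 10 T cell markers, 7 were detected in ILC1-like cells, with Cd3e, Cd6 and Cd8b1 at 0, and the list summed to 584 to 709 CPM against 505 to 556 CPM in NK-like cells. Trbc1 was seen in 80.7% of ILC1-like and 67.35% of NK-like cells, Lef1 in 33.4% and 41.9%, and Cd3d in 7.8% and 3.77%. The sum is therefore not a measure of T cells.

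**Figure D5:**
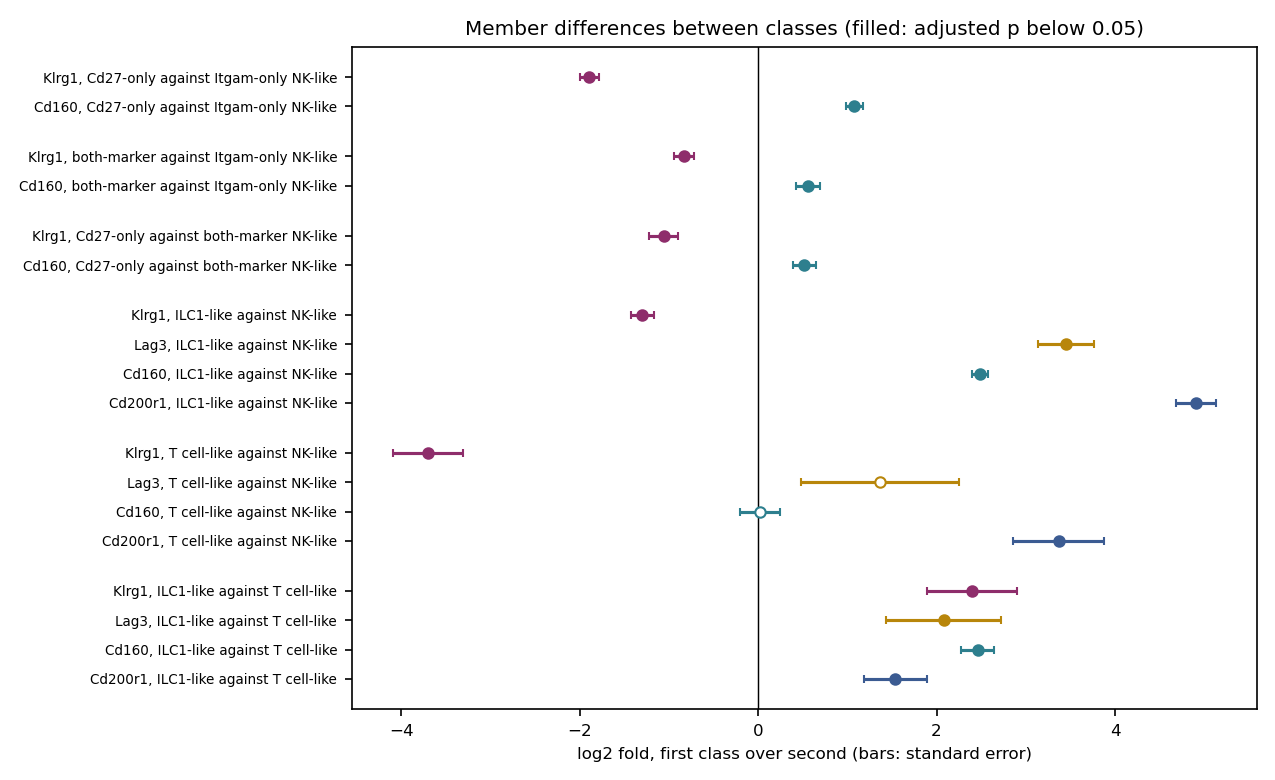
Log2 fold of each tested member, first class over second, with its standard error as bars, from the 2 edgeR fits; filled symbols have an adjusted p below 0.05. Klrg1 lies left of 0 in 5 of 6 comparisons and Cd160 right of 0.5 in 5 of 6.

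In NK-like cells Lag3 and Cd200r1 were rare. Lag3 was detected in 0.908% of the NK-like class (0.710 to 1.14%) and in 0.281% of B cell-like cells (0.0340 to 1.01%), with intervals that overlap. Its level of 2.31, 1.61 and 2.83 CPM by tag lay above the 0.995, 0 and 0.492 CPM of B cell-like cells, which rest on 2 UMIs, and the difference was not tested. At 2500 UMIs the Lag3 shares were 0.482% ± 0.248 and 0.0963% ± 0.167 (SD, n = 3 tags), and the tags overlapped. Cd200r1 lay at the background, seen in 0.805% (0.619 to 1.03%) against 0.983% (0.396 to 2.02%). In ILC1-like cells, whose median total was 5355 UMIs, the shares were 12.2% (9.74 to 14.95%) for Lag3 and 23.9% (20.6 to 27.4%) for Cd200r1. At 2500 UMIs they were 6.37% ± 2.26 and 12.7% ± 2.37 (SD, n = 3 tags). Lag3 and Cd200r1 passed no filter in the maturation classes. The Cd27-only class held 17 Lag3 and 15 Cd200r1 UMIs in 879 cells, and the Itgam-only class 18 and 17 in 2507 cells. With no filter, the edgeR log2 fold of Cd27-only over Itgam-only cells was 1.04 for Lag3 (adjusted p = 0.348). For Cd200r1 it was 0.943 (adjusted p = 0.498). Neither passed, on these few UMIs.

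Pairs of receptors were also counted within ILC1-like cells. Cd200r1 was seen in 15.8% of cells with Cd160 (12.3 to 19.9%) and 8.75% of those without (5.50 to 13.1%), higher in 3 of 3 tags. Lag3 was seen in 7.53% of cells with Cd160 and 4.17% of those without, also higher in 3 of 3 tags. For both genes the intervals overlap. Cd160 was seen in 34.7% of the 49 cells with Klrg1 (21.7 to 49.6%) against 63.9% of the other 576 (59.8 to 67.8%), lower in 2 of 3 tags and higher in tag 1 (71.4% against 62.3%). At this depth 16.5% of ILC1-like cells showed 2 members and 1.12% showed 3 or more.

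T cell-like cells had almost no Klrg1, which stood at 7.96, 13.7 and 3.41 CPM and rested on 6 UMIs. Their share of cells with Klrg1, 2.58% (0.708 to 6.48%), lay under that of B cell-like cells, 3.93% (2.63 to 5.63%), and is read as background. The log2 fold to NK-like cells was -3.70 (SE 0.394, edgeR adjusted p = 1.30e-09). Cd200r1 was higher than in NK-like cells, at 11.9, 34.3 and 18.7 CPM (log2 fold 3.37, SE 0.51, edgeR adjusted p = 1.99e-06). Cd160 stood at 19.9, 109.7 and 93.7 CPM, with tag 1 apart from the other 2, and did not pass the test (log2 fold 0.03, SE 0.224, edgeR adjusted p = 0.955). Lag3 (5 UMIs) did not pass either (log2 fold 1.37, SE 0.886, adjusted p = 0.292).

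Of the 6 members 1 was called higher and 1 lower in T cell-like than in NK-like cells, where 25.4% of genes tested were called, 13.1% as higher and 12.4% as lower. Cd200r1, the member called higher, passed the expression filter through classes where it is high. NK genes were present in the T cell-like cluster, whose NK markers summed to 1935 to 3325 CPM against 21190 to 22480 in NK-like cells. Without T cell-like cells holding Ncr1, Klrb1c or Klre1, and ILC1-like cells holding Eomes, the Cd160 log2 fold was -0.53 (adjusted p = 0.373) and that of Klrg1 -5.11.

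Against T cell-like cells, ILC1-like cells were higher in Cd160 (log2 fold 2.46, SE 0.184, edgeR adjusted p = 5.02e-13), Klrg1 (2.40, SE 0.503, adjusted p = 0.000479), Lag3 (2.08, SE 0.646, adjusted p = 0.0212) and Cd200r1 (1.54, SE 0.349, adjusted p = 0.00122). These are 4 of the 6 members, all called higher, where 16.8% of all genes tested were called, 8.76% as higher and 8.04% as lower. Lag3 passed the expression filter through ILC1-like cells, where it is high, which limits what this count shows. Without tag 3, which held 89 of the 155 T cell-like cells, the calls for Klrg1 (log2 fold 1.83, adjusted p = 0.0885), Lag3 (0.92, adjusted p = 0.636) and Cd200r1 (1.18, adjusted p = 0.233) were lost. With marker-set classes they were lost too, at log2 folds of 3.73 for Klrg1 (adjusted p = 0.0585), 1.71 for Lag3 (adjusted p = 0.275) and 1.01 for Cd200r1 (adjusted p = 0.25). Without tag 2 the Lag3 log2 fold was 3.30 (adjusted p = 0.00327), and without mixed cells that of Klrg1 was 3.87 (adjusted p = 0.00463). The Lag3 call was lost in 6 of 12 alternatives, while that of Cd160 was kept in all 12.

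Havcr2, the TIM-3 gene, was all but absent from the lymphocytes and abundant in myeloid cells that the selection had left. NK-like cells held 18 UMIs in 7822 cells, a share of 0.205% (0.117 to 0.332%) against 0.140% in B cell-like cells (0.00356 to 0.780%). ILC1-like cells held 2 UMIs and T cell-like cells 1. Conventional dendritic cell-like cells (555) stood at 138.9, 150 and 251.1 CPM, and monocyte or macrophage-like cells (79) at 118.0, 161.0 and 160.3. Of the 1077 Havcr2 UMIs in all, 970 lay in the dendritic class.

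Within that class Havcr2 went with Xcr1, the chemokine receptor gene of cross-presenting dendritic cells. A Havcr2 UMI was seen in 93 of 105 cells with Xcr1 and no Cd209a (88.6%, 80.9 to 94.0%), whose level was 308.3, 377.1 and 506.9 CPM by tag. Cells with Cd209a and no Xcr1 showed it in 19 of 85 (22.4%, 14.0 to 32.7%), at 36.9, 62.9 and 67.3 CPM. Cells with neither gene showed it in 66 of 355 (18.6%, 14.7 to 23.0%). The Xcr1 cells were deeper, with a median of 15660 UMIs against 8236, and their CPM also exceeded that of the Cd209a cells in each tag.

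Pdcd1 was seen in 24 of 11696 cells, with 35 UMIs. NK-like cells held 4 of these UMIs, 1 in the Cd27-only class and 3 in cells with neither marker. In Itgam-only cells 0 of 2507 held a UMI, which allows a share of up to 0.120%, and with both markers 0 of 433, up to 0.693%. ILC1-like cells held 8 UMIs in 5 cells (0.780%, 0.254 to 1.81%) and T cell-like cells 7 in 4 cells (2.58%, 0.708 to 6.48%), of which tag 2 gave 34.3 CPM, tag 3 3.41 and tag 1 none. Pdcd1 passed no filter. With no filter, edgeR gave adjusted p = 0.0061 for ILC1-like and 3.74e-05 for T cell-like against NK-like cells, on these few UMIs.

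The partners of these receptors were read from a list of 73 genes, ordered by role. Between Cd27-only and Itgam-only NK cells, 49 were tested, of which 11 were higher, 8 lower and 30 did not pass, with a median log2 fold of 0.03 against -0.00456 for all genes. Over all genes tested, 8.17% were called higher and 5.59% lower. Among ligands and binding partners 3 of 10 tested were higher and 1 lower, led by Pdcd1lg2, which encodes the PD-1 ligand PD-L2, at 39.2 ± 15.5 against 14.9 ± 3.30 CPM (log2 fold 1.42, edgeR adjusted p = 1.37e-09). Of the other inhibitory receptors 1 of 11 was higher and 4 lower. Lilrb4a was higher (log2 fold 1.49, adjusted p = 0.00197), and Lair1, a collagen receptor, lower (-0.75, adjusted p = 0.000376). Of 13 transcription factors 5 were higher and 3 lower. Tcf7, which encodes TCF-1, was 2.43-fold higher at 160 ± 23.0 against 68.0 ± 6.14 CPM, Nr4a1 was 1.62-fold higher, and Zeb2 was 2.13-fold lower at 507 ± 38.4 against 1120 ± 52.0 CPM. Among the 14 signalling partners 2 were higher and none lower: Sh2d1a, which passed in each of 14 alternatives, and Ptpn6, which did not pass in 7 of them. H2-D1, the gene counted as lower among ligands and binding partners, did not pass in 11 of 14.

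Against the Itgam-only class, cells with both markers had 3 of 49 genes higher (Pdcd1lg2, Tcf7 and Nr4a2), 1 lower (Zeb2) and 45 not passing, and a median log2 fold of 0.04 against -8.89e-05 for all genes. Over all genes tested, 1.83% were called higher and 0.888% lower. Pdcd1lg2 was 2.71-fold higher in cells with both markers (38.9 ± 4.74 against 14.9 ± 3.30 CPM, edgeR adjusted p = 4.39e-06). Cd27-only cells differed from those with both markers in 3 higher and 4 lower genes of 49, with a median log2 fold of -0.01 against -0.00435 for all genes. The all-gene shares were 2.38% higher and 0.783% lower. Tox (log2 fold 0.47, adjusted p = 2.44e-06) and Tcf7 (0.48, 0.00171) were higher, and Zeb2 (-0.54, 9.55e-10), Prdm1, the gene of Blimp-1 (-0.56, 0.012), Tbx21, the gene of T-bet (-0.35, 0.0079), and Klrb1b (-0.30, 0.011) were lower. Of these, Prdm1 did not pass in 6 of 14 alternatives, Tcf7 and Tbx21 in 5, Klrb1b in 4 and Zeb2 in 1, while Tox passed in each.

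In ILC1-like against NK-like cells 24 of 53 tested genes were higher, 11 lower and 18 did not pass, with a median log2 fold of 0.14 against 0.0011 for all genes. Over all genes tested, 12.8% were called higher and 10.9% lower. Of 12 ligands and binding partners, a group that also holds the receptor genes Btla and Cd4, 7 were higher and none lower. Among them were Pdcd1lg2 at 109 ± 19.4 against 24.8 ± 4.78 CPM (4.39-fold, edgeR adjusted p = 1.70e-15), and Btla, another partner of HVEM, at 6.66 ± 0.147 against 1.03 ± 0.606 (adjusted p = 7.57e-05). Cd4 was also called (adjusted p = 0.000131) at 2.13 ± 3.00 CPM, higher in 2 of 3 tags. Of 12 other inhibitory receptors 6 were higher and 3 lower, led by Ctla4 at 18.4 ± 13.8 against 1.43 ± 0.252 CPM (adjusted p = 5.83e-09) and Lilrb4a at 44.6 ± 4.69 against 6.05 ± 0.518 (adjusted p = 2.10e-14). Cd200r2, a relative of Cd200r1, was 18.1-fold higher at 18.6 ± 5.66 against 1.02 ± 0.241 CPM (edgeR adjusted p = 3.22e-11). It passed the expression filter only through the ILC1-like cells, which makes a call of higher likely in advance. Ctla4, Lilrb4a, Btla and Cd4 were also low in NK-like cells. They passed the filter through ILC1-like or T cell-like cells, where they are higher. Their calls, and the counts of higher genes that hold them, are limited in the same way.

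In T cell-like against NK-like cells 14 of the 53 were higher, 21 lower and 18 did not pass, with a median log2 fold of -0.34 against -0.0189 for all genes. Over all genes tested, 13.1% were called higher and 12.4% lower. Ctla4 stood at 114 ± 56.7 CPM and Btla at 34.3 ± 17.9, and Cd4 and Cd5, which also served to name the cells, led the higher genes. These genes were low in NK-like cells and passed the expression filter through classes where they are high. A call of higher was therefore likely in advance for them, which limits the count of higher genes. The adaptor gene Sh2d1b1 was lower (0.568 ± 0.983 against 39.1 ± 1.5 CPM, edgeR adjusted p = 3.18e-07), and so was Cd200r4 (7.03 ± 5.79 against 56.6 ± 3.47, adjusted p = 1.81e-07). Of the list, 26 genes were higher and 9 lower in ILC1-like than in T cell-like cells (median log2 fold 0.55 against 0.0248 for all genes). The all-gene shares there were 8.76% higher and 8.04% lower. Lilrb4a (log2 fold 5.19), Sh2d1b1 (4.26) and Klrb1b (4.51) were among the higher ones, and Cd200r2 was listed at 0 in T cell-like cells. Lilrb4a and Cd200r2 passed the expression filter through ILC1-like cells, which limits their calls here too.

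Across the 18 sums of the 4 maturation classes, ILC1-like and T cell-like cells in 3 tags, the genes most like each member among 8093 were found by Pearson correlation of log2(CPM + 1). Among those for Klrg1 were Chpt1 (r = 0.972) and Spn (0.964), which encodes CD43. Cd160 was most like Ahr (0.933), which encodes the aryl hydrocarbon receptor, the chemokine gene Xcl1 (0.933) and Stk39 (0.928). Xcl1 stood at 459 CPM in Cd27-only, 202 in Itgam-only, 1837 in ILC1-like and 131 in T cell-like cells. Cd200r1 was most like Ahcyl2 (0.968), Lpar6 (0.935) and Tmem154 (0.933), and Lag3 like Ppp1cc (0.905), B2m (0.902) and Pfdn2 (0.900). The sums share 1 library and the ILC1-like and T cell-like classes weigh heavily, so these values are descriptions.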

How the data were processed

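The matrix holds UMI counts per gene and barcode as deposited by the authors. Per the file headers the program was Cell Ranger 7.0.0. Seurat and the build mm10 appear in the submitters' processing notes. Which annotation was counted, and how intron reads were treated, is not given in the sources used here. The second sample was not analysed here. The 6 members, the lists and the tests were chosen with earlier results of these data known.

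Barcodes with 500 to 6000 genes and no more than 10% mitochondrial UMIs passed (15742, with 642 removed). Tag thresholds by Otsu's method (133, 186 and 130 counts) left 3567 barcodes with several tags and 479 with none out. Doublets were removed by tags alone. Clustering used scanpy 1.11.5 and leidenalg 0.10.2 (2000 variable genes, 30 components, 15 neighbours, resolution 1.0), without the members, the listed partner genes and mitochondrial and ribosomal genes. A name needed a marker score of at least 0.5 and 3 markers in 10% of cells, and the type's own markers had to be not outnumbered among the 10 leading genes (20 CPM added). An ILC1 name was withheld where an ILC2 or ILC3 marker led. This rule was set after clusters were looked at. It left cluster 6 (686 cells, low depth), cluster 10 (340) and cluster 18 (84) unnamed.

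Counts summed per tag and class were tested with edgeR 4.0.16 (R 4.3.3, quasi-likelihood, TMM, filterByExpr, the tag as block, Benjamini-Hochberg adjustment over all genes tested at 0.05), in 1 fit for the 4 maturation classes and 1 for NK-like, ILC1-like and T cell-like cells. The spread of a gene is estimated with information shared between genes. Classes of the same tag come from the same tagged cells, which is why tag is the block. The fits were tested on simulated data with known changes. Members were named in every class, and listed partners up to 6 per comparison by size of log2 fold among those that passed. Correlations used genes with a mean of at least 10 CPM over the sums, for members with at least 50 UMIs, and 1 gene among those most like a member is not reported here. Shares have exact Clopper-Pearson 95% intervals, and a count of 0 allows up to 3 cells of the total. Alternatives were no tag block, other scaling, DESeq2 1.42.0, no filter, leaving out each tag, the deepest 5% of cells left out, all clusters scored NK, resolution 2.0, other gates (at least 2 UMIs, 1500 UMIs, unthinned) and classes by marker gates. Removal of cells with a CD3 UMI, of those with Mki67 or Top2a, and of mixed ILC1-like and T cell-like cells was added after seeing the data.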

Additional observations from a re-analysis of the deposited data

How the results depend on the processing

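Of 18 member differences, 11 kept direction and side of the threshold in every alternative run, and over all 228 alternative values 200 did. Without the replicate block, calls fell from 1440 to 813 between Cd27-only and Itgam-only NK cells, from 285 to 114 between both-marker and Itgam-only cells, and from 331 to 181 between Cd27-only and both-marker cells, and the Cd160 calls of the last 2 comparisons and the Lag3 call of ILC1-like against T cell-like cells (adjusted p = 0.0597) were lost. In the same order of comparisons, classes from unthinned counts gave 2302, 886 and 572 calls, and classes at 1500 UMIs gave 140 and 122 for the last 2. DESeq2 gave 896 for the first, and at least 2 UMIs of the gate gene gave 351. Between Cd27-only and both-marker cells, calls were 194 without the deepest cells, 515 with all clusters scored NK and 167 without cells with Mki67 or Top2a. DESeq2 gave 1291 calls between ILC1-like and NK-like cells, against 2128. Leaving out 1 tag gave 166 to 201 calls for both-marker against Itgam-only, 207 to 254 for Cd27-only against both-marker, 1245 to 2110 for T cell-like against NK-like (2282 with all tags) and 799 to 1364 for ILC1-like against T cell-like cells (1507 with all). For those last 2 comparisons the lowest count was without tag 3. For both-marker against Itgam-only it was without tag 2, and for Cd27-only against both-marker without tag 3.

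The Cd160 log2 fold of T cell-like over NK-like cells, 0.03 with adjusted p = 0.955, changed sign with DESeq2 (-0.0588), with no expression filter (-0.106), without tag 2 (-0.0244; 0.306 without tag 1), without tag 3 (-0.494), with all clusters scored NK (-0.355), with marker gates (-0.166) and without mixed cells (-0.529), never past the threshold (adjusted p 0.275 to 0.966 over its 12 alternatives). At 1500 UMIs the Klrg1 difference between Cd27-only and both-marker cells was -0.661 (adjusted p = 0.197). The causes were not tested. Thinning moved 29 of 48 shares by more than their spread. Depth limits Lag3, Cd200r1, Havcr2 and Pdcd1 in NK-like cells, where shares lie near 1% or below. For each of these genes the interval overlaps that of B cell-like cells, where Lag3 rests on 2 UMIs.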

Other observations

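The unnamed cluster 10 (340 cells), whose best score was NK but whose leading genes include Cd3d and Cd3g, had the highest Cd160 of all clusters, at 510.1, 650.7 and 589.5 CPM by tag and in 95.9% of its cells (exact 95% interval 93.2 to 97.7%). The cluster held Ncr1 in 96.8% and Eomes in 77.1% of cells, against 94.5% and 69.6% of NK-like cells, but Prf1 in 55.9% against 93.0%. Cd3d was seen in 59.1%, Cd3g in 45.6% and Trac in 5.29%, with Cd3e, Cd6 and Cd8b1 at 0. Its Klrg1 stood at 12.1, 13.0 and 1.52 CPM, near the 11.9, 11.4 and 7.40 CPM of B cell-like cells. Lag3 stood at 22.9, 24.2 and 15.2 CPM and Cd200r1 at 14.8, 20.5 and 21.3, and Havcr2 was seen in 0 of 340 cells, which allows a share of up to 0.882%. The median total of 6976 UMIs exceeded the 3974 of NK-like cells. With clusters 10 and 6, both scored best as NK, counted as NK-like, the ILC1-like over NK-like log2 folds were smaller. They were 2.1 for Cd160, 2.89 for Lag3, 4.25 for Cd200r1 and -1.18 for Klrg1. Between Cd27-only and Itgam-only cells the log2 folds were then 1.61 for Cd160 and -2.05 for Klrg1, larger than without these clusters.

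The unnamed cluster 18 (84 cells), led by Il7r, Il23r, Cd4 and Cxcr6, held Cd160 at 326.3, 204.9 and 179.4 CPM and Lag3 at 14.5, 35.6 and 28.3 CPM (13 UMIs). Its Klrg1 stood at 7.25, 40.1 and 18.9 CPM (12 UMIs). Lag3 was also seen outside lymphocytes, in 7.75% of dendritic cell-like cells (5.66 to 10.3%) at 15.6, 14.0 and 9.68 CPM, and in 8.18% of progenitor-like cells (4.43 to 13.6%) at 9.62, 11.9 and 9.82 CPM. The progenitor-like cluster scored higher on basophil or mast cell markers (1) than on progenitor markers (0.863), and its name follows from Meis1 among its leading genes.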
